A study of Homo sapiens with 4 samples.

Results

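Metallothioneins and the zinc exporter SLC30A1 form a set of 9 genes, chosen by name: MT1A, MT1E, MT1F, MT1G, MT1H, MT1M, MT1X, MT2A and SLC30A1. All 9 are rows of the authors' deposited table, which lists 8727 genes, and the set was chosen with earlier results of these data known. Family members without a row there, such as MT1B, MT3 and MT4, are not in the set. Messenger RNA was sequenced from HepG2, a single human line that the labels describe as hepatoblastoma, in 2 groups of 2 libraries each. One group received the solvent DMSO, for which the labels give neither a dose nor a time. The other received 20 µM isoginkgetin, a plant biflavonoid known to inhibit pre-mRNA splicing, for 24 h, and the series title places the work in autophagic cell death. No label ties the 2 libraries of a group to separate cultures. The p-values below therefore set the group difference against a spread between libraries that could be technical variation alone.

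The table gives for each gene a mean normalized count over the libraries (the count after scaling for sequencing depth), p-values, and a log2 fold change whose standard error is abbreviated SE below. Values per library and the depth of each library are not analysed here. The headers do not state which group is the numerator. In what follows a positive log2 fold change is called higher and is taken to mean more transcript after isoginkgetin, and every direction turns if the authors divided DMSO by isoginkgetin. The table is limited to genes with an adjusted p under 0.05, out of 20024 genes tested. Presence of a gene in it is therefore the authors' call itself, and a gene outside it has no value here. Of 15 markers of hepatocytes and HepG2 cells, 13 were in the table, with means from 442.3 for TTR to 157429 for APOB, and 12 of the 13 were lower. Of 14 markers of fibroblasts, leukocytes and endothelium, 5 were in the table, all lower, at means from 14.2 for CLDN5 to 15328 for LYZ. Whether these shifts had a part in the values below was not tested, and in bulk RNA a change in cell make-up cannot be told apart from a change in RNA per cell.

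Metallothioneins are very small proteins whose many cysteines hold zinc, copper and cadmium. Liver cells make the MT1 forms and MT2A in response to metals, oxidants and glucocorticoids. The zinc-sensing transcription factor MTF1 binds short metal response elements in their promoters and in that of SLC30A1, also called ZnT1, which carries zinc out of the cytosol across the plasma membrane. Storage by metallothionein and export by SLC30A1 thus both lower free zinc in the cytosol.

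All 9 genes were higher and none was lower. Over all genes tested, 43.6% passed the authors' threshold, 22.4% as higher and 21.1% as lower. Of the 9 genes, 8 changed by at least 2-fold, against 6.26% of the genes tested that passed as higher at this size. All 9 are in the table, which holds only genes that passed. Within it 51.5% of genes were higher, and 1253 of 8727 were higher by at least 2-fold. The median log2 fold change of the 9 was 1.64, with a range from 0.66 to 5.02. The median over the whole table was 0.21, and over its higher genes 0.63. With every fold change taken relative to that table median of 0.21, all 9 remained positive, the lowest being SLC30A1 at 0.44. These counts describe a list chosen with earlier results of these data known, and test nothing about it.

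RefSeq promoter windows of build GRCh38.p14 were matched for MT2A, MT1X, MT1H and SLC30A1, 4 of the 9 genes. Those of MT1H, MT1X and SLC30A1 are printed because metal response elements are the sequence feature these genes are known to share. Each window is the 250 bases before the annotated transcription start, written 5′ to 3′ in the direction of the gene. Capitals mark matches to the core of the metal response element, searched as TGCACNC and TGCGCNC on both strands, with overlapping matches counted separately. The windows are chr16:56608334-56608583 (plus strand) for MT2A, chr16:56669564-56669813 (plus strand) for MT1H, chr16:56682220-56682469 (plus strand) for MT1X and chr1:211579162-211579411 (minus strand) for SLC30A1. The annotations place the starts differently: in GENCODE v29 all 250 bases of the MT2A window and the last 46 of the MT1X window are exon of the gene's own transcript, 5′ UTR there, and 0 bases of the other windows are. These stretches are not printed, so MT1X is shown as chr16:56682220-56682423 and MT2A is described by its matches.
MT1H: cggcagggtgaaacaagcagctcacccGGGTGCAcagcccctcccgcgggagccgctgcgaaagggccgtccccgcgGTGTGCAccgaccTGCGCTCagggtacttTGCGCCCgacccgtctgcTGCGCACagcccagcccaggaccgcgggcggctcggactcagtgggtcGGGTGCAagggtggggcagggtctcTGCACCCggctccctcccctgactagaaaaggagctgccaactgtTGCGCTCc
MT1X: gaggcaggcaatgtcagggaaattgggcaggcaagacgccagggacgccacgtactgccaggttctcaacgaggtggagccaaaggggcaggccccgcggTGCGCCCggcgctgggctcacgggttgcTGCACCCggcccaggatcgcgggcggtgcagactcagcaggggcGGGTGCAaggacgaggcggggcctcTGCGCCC
SLC30A1: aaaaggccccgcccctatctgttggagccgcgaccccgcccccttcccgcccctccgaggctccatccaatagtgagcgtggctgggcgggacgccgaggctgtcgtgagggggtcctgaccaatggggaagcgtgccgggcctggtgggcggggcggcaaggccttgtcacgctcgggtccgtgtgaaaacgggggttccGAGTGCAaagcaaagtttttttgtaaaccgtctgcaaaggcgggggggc

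MT1H held 8 matches in this window, 4 of each core, and MT2A held 7, of which 5 were TGCACNC. MT1X held 4 matches and SLC30A1 held 1. Among all 35116 promoter windows of this length in the RefSeq table, 24.8% held at least 1 match, 0.370% at least 4 and 0.0313% at least 7. Some positions recurred: MT1X and MT1H each had matches starting 78 and 53 bases before the start, and MT2A had one 54 bases before it. The single match of SLC30A1 began 49 bases before the start and lay on the reverse strand. MT1B and MT4, 2 other genes of the cluster with a window in RefSeq, held 3 matches each, and neither is in the authors' deposited table. Of the MT1B matches, 2 started 79 and 53 bases before the start, so such positions were not limited to genes in the table. The window of MTF1 itself held 0, as did both windows of the zinc importer gene SLC39A10. Each window ends at its start, so a 0 says nothing about the bases after it. A match describes letters and is no measured binding, and the number of matches was not tested against the fold changes.

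MT2A, the main metallothionein of most human tissues, was the most abundant of the set. Its mean in the authors' deposited table was 6817 normalized counts, 57.3% of the sum over the 8 metallothioneins. If the deposited fold change is read as the ratio of the 2 group means, that mean corresponds to 3631 under DMSO and 10004 after isoginkgetin, a 2.75-fold difference with a 95% interval of 2.04 to 3.72 (normal interval from the deposited SE). MT1E had a mean of 2093, which implies 1302 and 2883 in the same order, the lowest point estimate among the metallothioneins at 2.21 (interval 1.41 to 3.49). MT1G, with a mean of 1634, implies 794.2 and 2473, or 3.11-fold, and its interval ran from 1.52 to 6.37. The intervals of these 3 genes overlapped, and the differences between them were not tested.

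MT1F had the smallest SE of the metallothioneins, 0.13 on the log2 scale. From a mean of 986.7 in the authors' deposited table it implies 387.1 under DMSO and 1586 after isoginkgetin, a 4.10-fold difference with an interval of 3.44 to 4.89. The authors' deposited table gives it an adjusted p of 1.11e-54, and by p-value it ranked 289 of the 8727 genes. MT1X, at a mean of 193.9, implies 87.7 and 300.2, or 3.42-fold (interval 2.45 to 4.78), which overlaps the interval of MT1F. Of the 1910 other genes with a mean within 1.5-fold of that of MT1F, 7 had a log2 fold change as high.

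The largest folds belonged to scarce members. The authors' deposited table puts MT1M at a mean of 91.6 and at 5.02 on the log2 scale (SE 0.55), with an adjusted p of 2.35e-19. This implies 5.48 normalized counts under DMSO and 177.8 after isoginkgetin, or 32.4-fold with an interval of 15.4 to 68.2, so that a transcript barely counted in one group was plainly present in the other. Its interval on the log2 scale, 3.95 to 6.09, did not overlap those of MT1F, MT1X, MT1G, MT2A, MT1A, MT1E or SLC30A1. It overlapped that of MT1H, for which the authors' deposited table gives 3.66 (SE 1.15) with an adjusted p of 0.000464. MT1H had a mean of 16.1, which implies 2.37 and 29.9, and its interval in fold ran from 2.64 to 60.2. The deposited fold changes are fitted values that look shrunken towards 0. The normal deviate of the p-value times the SE gives 4.41 for MT1H and 5.09 for MT1M. Abundant genes with a large SE were affected too: the same product gives 1.98 for MT1G and 1.30 for MT1E, against 1.64 and 1.15 as deposited. The headers do not state whether the SE belongs to a shrunken or an unshrunken fold change. The product is therefore no estimate of the fold before shrinkage. MT1A, also scarce at a mean of 57.2, stands in the authors' deposited table at 1.42 on the log2 scale (SE 0.45), with an adjusted p of 0.000626, and implies 31.2 and 83.3. Of these 3 scarce genes, MT1A thus lay within the range of the abundant ones. Differences between genes were not tested, because their errors share the same 4 libraries.

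**Figure D1:**
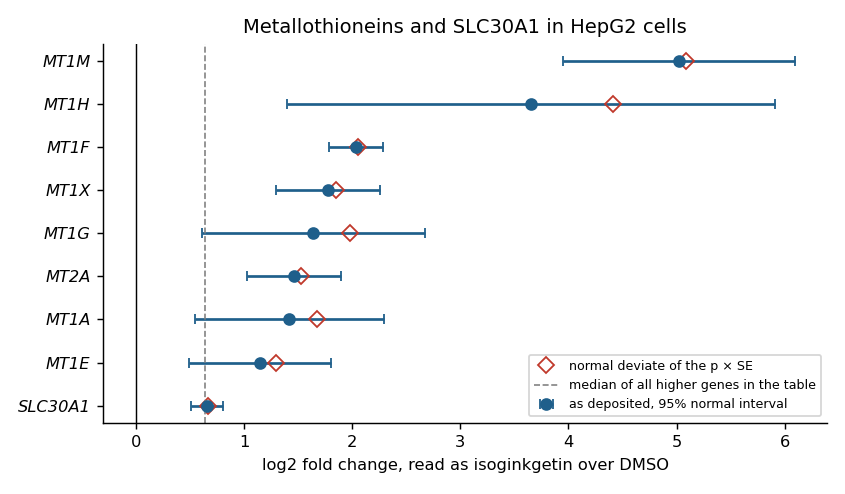
Log2 fold change of each gene with its 95% normal interval (blue), and the normal deviate of the gene's p-value times its SE (red diamonds), against the median of all higher genes in the table (dashed, 0.63). MT1M and MT1H stand highest, at 5.02 and 3.66, and the interval of MT1H is the widest.

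SLC30A1, the exporter, had the smallest fold of the 9. In the authors' deposited table its mean was 2614 and its log2 fold change 0.66 (SE 0.07), with an adjusted p of 8e-18. The implied means are 2030 under DMSO and 3198 after isoginkgetin, a 1.58-fold difference with an interval of 1.42 to 1.74. This fold lies close to the median of all higher genes (0.63 on the log2 scale), and 209 of 1389 genes of like level had a fold change as high. On the log2 scale its interval, 0.51 to 0.80, lay below those of MT1F, MT1X, MT2A, MT1M and MT1H, and it overlapped those of MT1E, MT1A and MT1G.

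Summed over the 8 metallothioneins, the implied normalized counts were 6241 under DMSO and 17537 after isoginkgetin, a ratio of 2.81. With the normal deviate times the SE in place of each fold change, the sums were 5884 and 17894, a ratio of 3.04. The shares and levels below use the fold changes as deposited. MT2A, MT1E, MT1G and MT1F made up 97.0% of the summed mean, and the other 4 made up 3.02%. As shares of the pool, MT2A was 58.2% of the implied sum under DMSO and 57.0% after isoginkgetin, and MT1E was 20.9% and 16.4%. MT1F was 6.20% and 9.05%, and MT1M 0.0878% and 1.01%. These shares rest on reading the ratio as isoginkgetin over DMSO, and with the ratio turned the values of the 2 groups trade places. Per kilobase of one GENCODE v29 transcript for each gene, the mean normalized counts ran from 8674 for MT2A through 4023 for MT1G, 2973 for MT1E and 1430 for MT1F to 477.5 for SLC30A1 and 430.9 for MT1X. MT1A followed at 144.5, MT1M at 110.5 and MT1H at 40.6 per kilobase. After isoginkgetin the implied levels per kilobase of MT1X (667.0) and SLC30A1 (584.3) changed places, while under DMSO SLC30A1 stood at 370.8 and MT1X at 194.9. MT1M (214.5) and MT1A (210.3) changed places as well, against 6.61 and 78.7 under DMSO. With the ratio turned these values trade places too. The table gives no error for a level, so neighbours in this order cannot be separated, and a different choice of transcript would change the lengths. Of the 50-base windows of the MT1X transcript, 45.1% also occur in other genes. Its level, and the shares above, thus also depend on how reads matching several genes were treated, which is not known. The MT2A transcript used here includes the 250 bases that RefSeq places before the start.

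**Figure D2:**
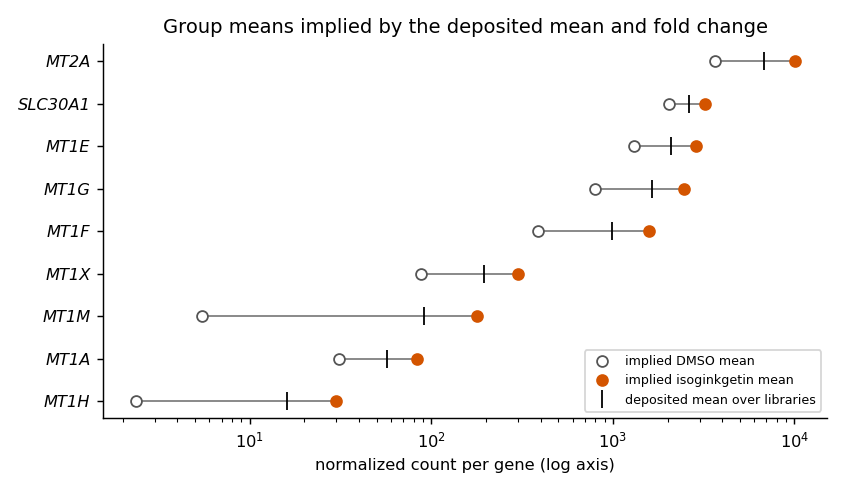
Deposited mean normalized count (black tick) and the means under DMSO (open) and isoginkgetin (filled) that it implies together with the deposited fold change, on a log axis. MT2A spans 3631 to 10004 and MT1M 5.48 to 177.8.

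MT1G, MT1E and MT2A had SEs far above those of other genes of their level. The SE of MT1G was 0.53 on the log2 scale in the authors' deposited table, 5.82 times the median of the 1787 other genes with a mean within 1.5-fold of its own, and 0 of those had a larger SE. MT1E, with an SE of 0.33 in the authors' deposited table, stood at 4.02 times its median, and MT2A, with 0.22 in the authors' deposited table, at 3.74 times, each with 1 gene of like level above it. The SEs of SLC30A1, MT1A, MT1X and MT1H were 0.962, 0.977, 1.05 and 1.13 times their own medians. MT1F was at 1.18 times, with 102 of 1910 genes of like level above it, and MT1M at 1.61 times, with 7 of 582 above it. Of the 3645 genes with a mean of at least 1000, 14 (0.384%) had an SE over 2 times the median of their level, and 3 of these 14 were MT1G, MT1E and MT2A. Genes with a large SE reach the table less readily, so the share among all genes tested may differ.

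Counting error was a small part of the SEs of MT1G, MT1E and MT2A. From the implied means, counting alone would give an SE of 0.04 for MT1G and 0.02 for MT2A on the log2 scale, if the size factors were near 1. The deposited SEs were 12.7 and 11.2 times these values, and that of MT1E was 9.83 times. The multiple was 2.24 for MT1F and 2.57 for SLC30A1. For MT1M the deposited SE was 1.24 times its counting error of 0.44, and for MT1H 1.67 times. Read as the error of an unshrunken difference between 2 and 2 libraries, the SEs correspond to a coefficient of variation between libraries of a group of 36.5% for MT1G, 23.2% for MT1E and 15.3% for MT2A. For MT1F and SLC30A1 the same reading gives 8.99% and 5.16%. These percentages restate the SEs of the authors' fitted model, and the spread between libraries itself was not measured here. Which library deviates, and whether the 3 genes deviate together, cannot be read from the table.

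**Figure D3:**
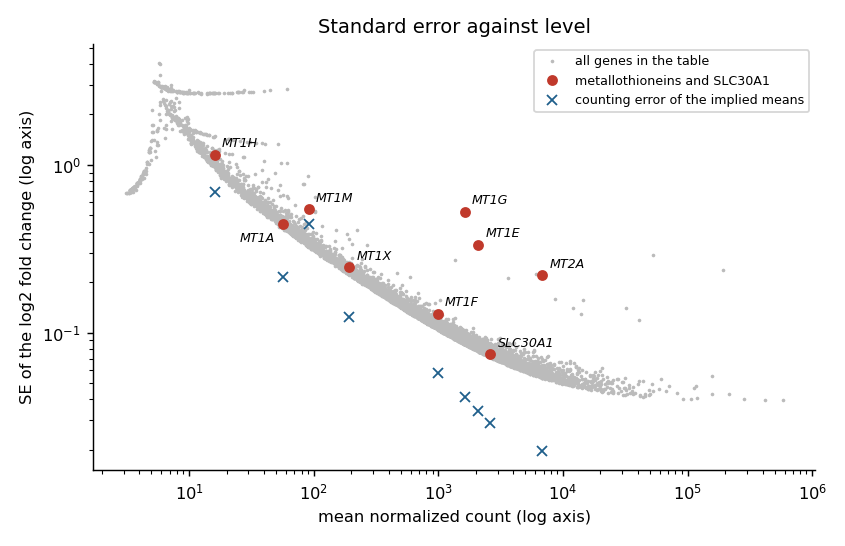
SE of the log2 fold change against mean normalized count for all genes in the table (grey), the 9 genes (red) and the counting error of their implied means (blue crosses), both axes logarithmic. MT1G, MT1E and MT2A lie above the grey band, at SEs of 0.53, 0.33 and 0.22. Of the other 6, MT1M had the largest SE relative to the median of its level, at 1.61 times.

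Metallothionein genes resemble each other, which bears on how reads are assigned. Of all 50-base windows in a GENCODE v29 transcript of each gene, the share also present in a transcript of another gene was 45.1% for MT1X, 20.4% for MT1H, 20.2% for MT1G and 0 for SLC30A1. It was between 3.59% (MT1F) and 7.05% (MT1M) for MT1F, MT2A, MT1E, MT1A and MT1M. MT1X shared 29.2% of its windows with the clone-named transcript AC026461.1 and 11.7% with MT1G, and MT1H shared 17.2% with MT1HL1. With 100-base windows only MT1X (19.1%) and MT1H (3.36%) kept any shared sequence among the 9. The sources used here give neither the read length nor how reads that match several genes were treated. Of 11 further metallothionein genes and pseudogenes looked for, 1 was in the table: MT1XP1, a processed copy of MT1X, which the authors' deposited table puts at a mean of 8.45 and at 5.67 on the log2 scale (SE 2.71). MT1XP1 shares 27.7% of its 50-base windows with MT1X and 24.1% with MT1G. The normal deviate times the SE gives 9.96 for it. With so low a mean, so large an SE and this sharing, its value is uncertain.

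Around the cluster the neighbouring genes went both ways. The metallothionein genes lie side by side on chromosome 16, and of the 10 protein-coding genes on each side of them in the RefSeq order, 12 of 20 were in the table, 6 higher and 6 lower. Among these the authors' deposited table lists HERPUD1, a factor of ER-associated degradation, at 2.44, CES1, a liver carboxylesterase, at 1.94 and SLC6A2, the noradrenaline transporter, at 1.28. Lower were the salt cotransporter SLC12A3, at −4.03, the membrane protein PLLP at −2.47 and the immune regulator NLRC5 at −1.65 in the authors' deposited table. The authors' deposited table has BBS2, a ciliary gene given here as the nearest neighbour on one side, at −1.22 (SE 0.13), while NUP93 on the other side has no value. The 8 metallothioneins between them were all higher, while MT4, MT3 and MT1B within the cluster have no value. Around SLC30A1 on chromosome 1, 6 of 20 neighbours were in the table, 4 higher and 2 lower, from −1.52 for HHAT to 2.02 for the stress factor ATF3 in the authors' deposited table.

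**Figure D4:**
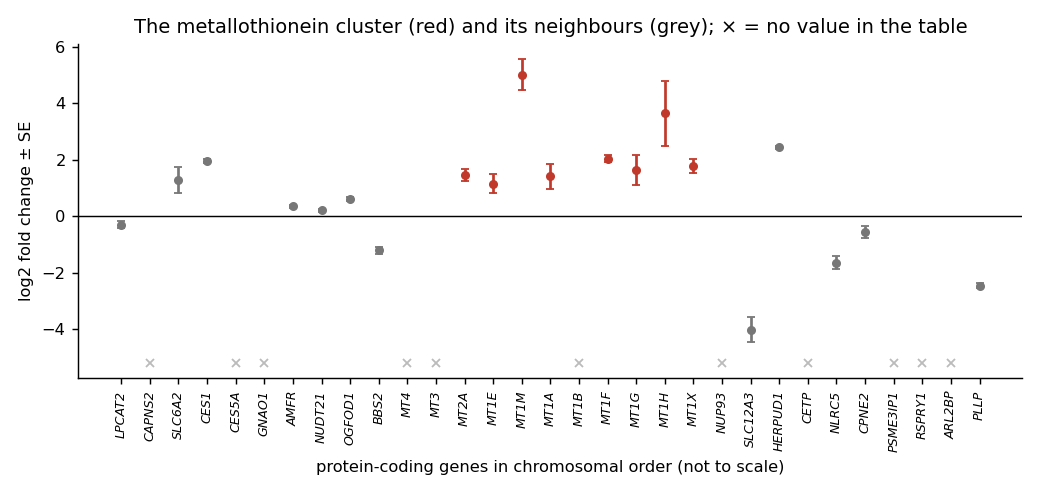
Log2 fold change ± SE of the metallothionein genes (red) and the 10 protein-coding genes on either side (grey) in chromosomal order, with genes outside the table as crosses. The 8 red points lie between 1.15 and 5.02, and the grey points between −4.03 and 2.44.

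The regulator MTF1 was higher as well. The authors' deposited table gives it a mean of 979.0 and 1.12 on the log2 scale (SE 0.11), with an adjusted p of 1.89e-24. Of the 23 other zinc transporters listed, 14 were in the table, 6 higher and 8 lower. Lowest of these in the authors' deposited table was SLC39A10, an importer at the plasma membrane that MTF1 is known to repress when zinc is plentiful, at −1.95 (SE 0.15), with an adjusted p of 5.58e-40. Highest of the importers in the authors' deposited table was SLC39A7, which releases zinc from the endoplasmic reticulum, at 0.89 (SE 0.06). The table also lists SLC39A3 at 0.60, SLC39A9 at 0.54, SLC39A4 at −0.65 and SLC39A5 at −0.49 among the authors' values for importers, 4 of 8 of which were higher and 4 lower.

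Among the other 6 members of the SLC30 family in the table, 2 were higher and 4 lower. The authors' deposited table has SLC30A7, which loads zinc into the Golgi, at 0.80 (SE 0.10) and SLC30A5, of the early secretory pathway, at 0.26 (SE 0.09). In the opposite direction, the authors' deposited table has SLC30A6, the partner of SLC30A5, at −0.27 (SE 0.12). SLC30A3, known for loading synaptic vesicles, stood at −0.96, the mitochondrial transporter SLC30A9 at −0.76 and SLC30A10, a manganese exporter despite its family, at −0.36 in the authors' deposited table. Of all SLC30 genes in the table, SLC30A1 and SLC30A7 alone were above 0.26.

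**Figure D5:**
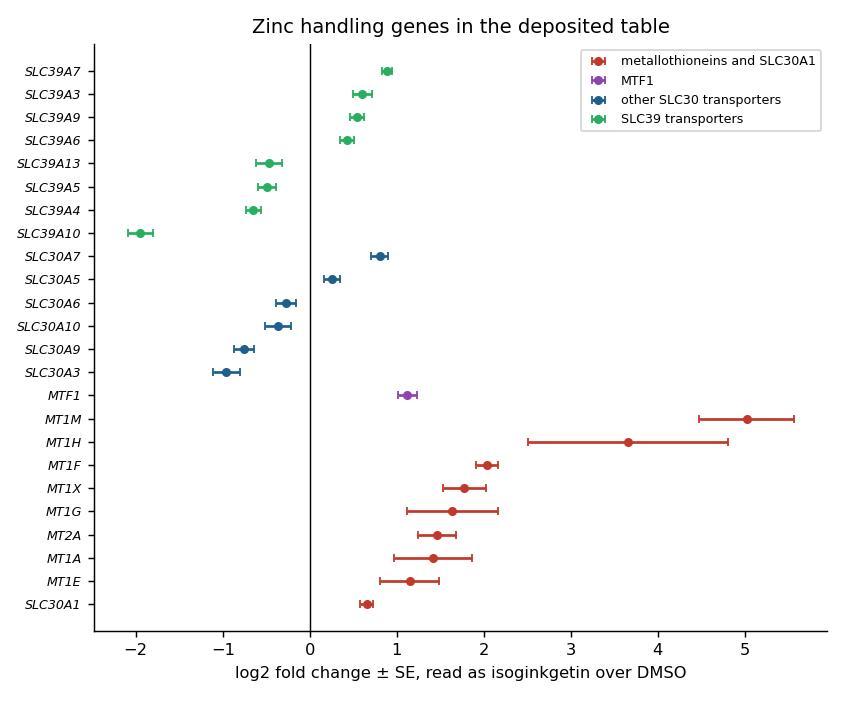
Log2 fold change ± SE of the 9 genes (red), MTF1 (purple), the other SLC30 transporters (blue) and the SLC39 transporters (green) in the table. The red points and MTF1 lie above 0, and the transporters lie on both sides, from −1.95 for SLC39A10 to 0.89 for SLC39A7.

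Other genes that respond to the same inducers were read beside the set. Of 12 genes known to respond to cadmium and oxidants, 9 were in the table and all 9 were higher, with a median of 1.26. Over all genes tested 43.6% passed, 22.4% as higher, and this share stands beside the counts of the other lists too. Listed genes outside the table have no value here. The lists were chosen with earlier results of these data known, so the counts test nothing. The authors' deposited table has HSPA6, a heat shock chaperone that is silent in most unstressed cells, at 8.48 (SE 2.74) on a mean of 32.9. That value is fitted with one group very low and is no bound: the normal deviate times the SE gives 15.1. GCLM and GCLC, which make the first step of glutathione synthesis, stood at 1.61 and 1.46, TXNRD1, thioredoxin reductase, at 1.29 and SRXN1, sulfiredoxin, at 1.26 in the authors' deposited table. The authors' deposited table has HSPA1B at 0.71 (SE 0.11), and its reads may be divided with its near-identical copy HSPA1A. HSPA1A was the lowest of the 9 in the authors' deposited table, at 0.41 (SE 0.13).

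Glucocorticoid targets, another class of genes induced by a known activator of MT2A, were mixed. Of 9 genes looked for, the receptor gene NR3C1 included, 6 were in the table, 4 higher and 2 lower. TSC22D3, the leucine zipper known as GILZ, was at 1.08, the clock gene PER1 at 0.96, the phosphatase DUSP1 at 0.67 and the factor KLF9 at 0.66 in the authors' deposited table. Lower in the authors' deposited table were FKBP5, a co-chaperone of the receptor, at −0.24 (SE 0.10) and the kinase SGK1 at −1.26 (SE 0.16). Of 10 copper genes 4 were in the table. The importer SLC31A1 was at 0.80, the exporter ATP7B at −0.42, the superoxide dismutase chaperone CCS at −0.84 and the plasma carrier CP at −4.33 in the authors' deposited table.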

How the data were processed

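HepG2 cells gave 4 RNA-seq libraries, grouped here by their titles. Per the labels' protocols, polyadenylated RNA was made into non-directional libraries, so strand is unknown. Per the submitters' processing notes, featureCounts and STAR 2.7.0 are the tools named, and mm10 and hg19 the builds, with no roles. The authors' deposited mean is taken to be a depth-scaled count, a signal averaged over libraries. The authors' deposited fold change and SE are on the log2 scale, and their p-values and adjusted p-values are per gene. Per the file headers the columns are those of DESeq2, and the sources used here give neither its version nor its model.

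Members and lists were chosen with earlier results of these data known. The planned fits per library could not be run on this table, and no test was added. The number of genes tested was recovered from adjusted p times rank over p, a step tested on simulated data. Fold over SE fell below the normal deviate of the p (median ratio 0.757 at means under 100 and 0.990 at 1000 or more), so fold changes look shrunken and implied means of scarce genes are rough. Intervals are the fold change plus or minus the 95% normal multiple of the SE. Shared windows and transcript lengths used 1 principal GENCODE v29 transcript for each gene, matched by symbol, and promoters came from RefSeq (GRCh38.p14). Every member was named, and of each other list and locus up to 6 genes with the largest absolute change. HSPA1A was added beside its copy HSPA1B. Computation used Python 3.11.15, pandas 2.3.3 and scipy 1.17.1.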

Additional observations from a re-analysis of the deposited data

How the results depend on the processing

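No paired analysis was possible because the table holds no values per library. For the same reason leaving out libraries, the edgeR and DESeq2 fits and the replicate block were not run. With Bonferroni over the 20024 genes tested, 5 of the 9 genes passed, and MT1A, MT1E, MT1G and MT1H did not. That adjustment called 10.7% of the genes tested as higher. An adjusted p under 0.001 kept all 9 genes (14.5% of genes tested passed as higher), as did a change of at least 1.5-fold (12.2%). A minimum mean normalized count of 100 left 6 genes, all higher. The median log2 fold change was 1.64 as deposited, 1.85 as the normal deviate times the SE, 1.43 centred on the table's median, 1.55 at means of at least 100 and 1.71 without SLC30A1. The normal deviate times the SE raised the log2 fold changes by 0.0061 (SLC30A1) to 0.75 (MT1H), and kept all 9 positive. Alternatives chosen after seeing the data were the median over the 6 genes with at most 10% of 50-base windows shared, 1.44, and other windows of like level. A larger SE than 95% of genes of like level was found for 4 of the 9 genes within 1.5-fold of their mean. These were MT1G, MT1E, MT2A and MT1M. A narrower window gave 5, where MT1F joined with 13 of 1092 genes above it, and 2-fold gave 4. The depth of the libraries is unknown.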

Other observations

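Of the genes with a mean of at least 1000, 14 had an SE over 2 times the median of their level, MT1G, MT1E and MT2A among them. The highest multiple in the authors' deposited table was that of SERPINA1, the plasma antitrypsin gene, 6.46, at −0.69 (SE 0.29), followed by MT1G at 5.82. The authors' deposited table lists FTL, the ferritin light chain, at a log2 fold change of 0.93 with an SE of 0.23, or 5.45 times the median of its level. FTH1, the heavy chain, is at 0.83 with an SE of 0.14 in the authors' deposited table, or 3.02 times. After MT1E and MT2A, at 4.02 and 3.74, came ANXA4 at 3.66, VWA1 at 3.04 and RPLP2 at 3.03 times. RPS21 at 2.85, HOXD1 at 2.81, MALAT1 at 2.66, HMGA1 at 2.60 and IGF2 at 2.49 times made up the rest. These genes were named after their values were seen, and no test was made of what they share.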
